A study of Mus musculus with 6 samples.

Results

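Ribosomal protein pseudogenes are copies of the genes for ribosomal proteins that lie elsewhere in the genome. They were taken as the genes whose GENCODE M21 symbol starts with Rps or Rpl and ends in -ps, with or without a number, with at least 12 estimated counts summed over 6 libraries. Of the 55401 genes in the table, 300 carried such a symbol and 170 reached that sum, while 94 stood at 0 in every library and 36 at sums from 1 to 11. The copies were thus chosen by their summed count over all libraries, and their abundance is given as a description only. Just inside that limit stood Rpl31-ps4 with 12 counts and just outside it Rps24-ps2, Rpl10-ps2 and Rpsa-ps4 with 11 each. The libraries came from mouse lacrimal glands, which secrete the watery part of tears. The 3 control libraries are labelled ICR, an outbred stock. The other 3 carry the genotype label NOD/Ltj, an inbred strain with spontaneous autoimmune inflammation of the tear and salivary glands. Titles of these 3 read MOD instead, and the genotype label was used. No treatment is named for either strain, and the labels state no age, no sex and no animal numbers. P-values therefore measure the spread between these samples, and any other difference between the mice cannot be told apart from strain. The series is titled as a study of NF-κB signalling in gland damage of Sjögren's syndrome, and the comparison here asks which copies differ between the disease-prone and the control strain and whether their parents move with them.

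A ribosome is built from ribosomal RNA and a set of proteins, named Rps in the small subunit and Rpl in the large one, and nearly every such protein is made from a single active gene. The mRNAs of these genes are short and abundant, and over evolution many were reverse transcribed and inserted back into the genome as copies without introns, called processed pseudogenes. Most are regarded as silent, some are transcribed from nearby promoters, and their near identity to the parent mRNA makes it hard to assign short reads to the copy or to the parent. The gene without the -ps suffix is called the parent here. M21 classed 159 of the 170 copies as processed pseudogenes, 7 as transcribed processed pseudogenes and 4 as protein coding. They fell into 51 families by parent, 100 copies of Rpl genes and 70 of Rps genes. A family here holds only the parent and its -ps symbols, so related pseudogenes with other symbols are outside its shares and sums. The families of Rps12 with 15 copies, Rpl31 with 12 and Rpl21 with 9 were the most numerous, and 17 parents had a single copy.

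The 3 copies called between the strains below, and Rps26-ps1, which did not pass the test, are shown here beside their parents where their sequences differ, from the M21 transcripts, sense strand, 5′ to 3′, with differing bases in capitals. M21 gives reference sequences, and the bases these genes carry in the ICR and NOD/Ltj mice were not examined. All sequence comparisons below are likewise of M21 sequences. Positions count from 1 at the A of the parent's start codon, and each substitution gives the parent's base first. Rps24-ps3 differed from Rps24 over its 402 bases at 4 places, C207T, G273C, G360T and C380T, all within positions 141 to 380:
Rps24: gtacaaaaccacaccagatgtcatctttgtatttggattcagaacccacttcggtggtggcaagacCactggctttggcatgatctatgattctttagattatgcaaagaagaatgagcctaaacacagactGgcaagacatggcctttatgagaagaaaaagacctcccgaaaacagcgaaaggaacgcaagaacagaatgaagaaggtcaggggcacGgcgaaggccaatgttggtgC
Rps24-ps3: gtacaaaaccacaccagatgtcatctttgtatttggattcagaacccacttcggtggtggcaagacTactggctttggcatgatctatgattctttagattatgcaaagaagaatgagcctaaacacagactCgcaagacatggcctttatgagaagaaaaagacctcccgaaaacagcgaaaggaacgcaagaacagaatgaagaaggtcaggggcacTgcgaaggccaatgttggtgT
Rps2-ps6 and Rps2-ps13 each carried 7 substitutions against Rps2. Both had T60A, T204C, G300A and T756C. Rps2-ps6 also had T285C, C381G and C593T and 24 gap bases, and Rps2-ps13 also had A84G, C444T and C453A. Positions 142 to 381 hold T285C and C381G, which only Rps2-ps6 carries, and the capitals in Rps2 mark bases at which either copy differs:
Rps2: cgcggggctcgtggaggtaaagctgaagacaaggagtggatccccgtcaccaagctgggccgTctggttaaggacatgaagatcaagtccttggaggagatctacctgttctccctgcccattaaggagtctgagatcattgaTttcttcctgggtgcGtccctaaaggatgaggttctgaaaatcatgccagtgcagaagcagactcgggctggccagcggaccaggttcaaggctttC
Rps2-ps6: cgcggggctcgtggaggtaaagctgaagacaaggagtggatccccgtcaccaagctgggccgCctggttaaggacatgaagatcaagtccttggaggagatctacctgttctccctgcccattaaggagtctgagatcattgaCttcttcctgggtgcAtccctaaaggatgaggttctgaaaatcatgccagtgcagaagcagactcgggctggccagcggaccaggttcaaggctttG
Rps2-ps13: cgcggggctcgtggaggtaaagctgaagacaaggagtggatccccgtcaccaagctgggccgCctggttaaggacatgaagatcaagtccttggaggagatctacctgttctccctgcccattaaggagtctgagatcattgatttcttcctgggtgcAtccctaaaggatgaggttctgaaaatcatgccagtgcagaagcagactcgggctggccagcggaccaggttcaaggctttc
Rps26-ps1 differed from the coding sequence of Rps26 only at C30T and G270A, the first of which lies within positions 1 to 120:
Rps26: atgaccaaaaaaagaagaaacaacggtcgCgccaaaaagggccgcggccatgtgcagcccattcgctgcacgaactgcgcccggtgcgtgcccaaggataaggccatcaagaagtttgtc
Rps26-ps1: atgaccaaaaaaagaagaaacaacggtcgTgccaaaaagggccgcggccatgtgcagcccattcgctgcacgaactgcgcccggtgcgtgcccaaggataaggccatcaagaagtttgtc

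Library totals ran from 58426580 to 76554340 estimated counts, and values tended to come in steps of 4: between 808 and 1043 genes a library had exactly 4 counts, against 223 to 497 with 3 or 5. Of all values from 1 to 40, 30.4 to 31.7% were multiples of 4, against 25% without steps, so that a sequenced fragment may have added about 4 counts. The copies together took from 0.0959% (ICR 3) to 0.198% (ICR 1) of a library, and 135 of the 170 were above 0 in all 6. Levels are given as CPM, the usual counts scaled to library size, after TMM scaling, and, if a fragment added 4 counts, a count of 0 allows up to 12 counts per library, or 0.157 to 0.205 CPM before scaling, for counting error only. Markers of lacrimal acinar cells, 8 in number, summed to between 6405 and 13960 CPM in every library, and none was called. The summed level of 6 B cell markers ran from 2.04 to 5.84 CPM in ICR and from 105 to 428 CPM in NOD/Ltj, with 5 called higher, and that of 6 T cell markers from 2.22 to 2.95 and from 25.6 to 69.1 CPM, with 3 called higher. ICR 3 stood apart in 4 salivary gland markers, at 11971 CPM against 46.2 to 2044 in the others, and in 4 skeletal muscle markers, at 70.0 CPM against 0.448 to 3.20. In such bulk samples fewer cells of a type and less RNA per cell cannot be told apart, and the part of cell makeup in the results below was not tested.

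Between the strains, 117 copies had counts high enough to be tested and 53 did not. Among those tested, 3 were called at an adjusted p under 0.05, which was 2.56% of them beside 2.24% of all 18537 genes tested. Rules other than this test gave from 1 to 6 calls: 6 with DESeq2, Rps2-ps10 and Rps26-ps1 among the added (5.47% of all genes), 3 with limma-voom (0.771%), 2 without TMM scaling (1.43%) and 1 when NOD/Ltj 3 was left out (0.0676%). Rps24-ps3 and Rps2-ps6 were higher in NOD/Ltj, and Rps2-ps13 was lower. Of all genes, 1.88% were called higher in NOD/Ltj and 0.361% lower. With no adjustment, 8 copies had a p under 0.05, or 6.84%, beside 13.1% of all genes. The 2 groups of libraries did not overlap for 21 copies, or 17.9%, beside 20.0% of all genes, with 7 copies higher in NOD/Ltj (11.2% of all genes) and 14 lower (8.89%). Over both directions together, the share of copies called or separated was near or below that of genes in general. The median log2 fold change, given throughout as NOD/Ltj over ICR, was -0.12 over the tested copies, -0.17 over the 51 parents and -0.03 over all genes, and 105 of the 117 copies lay within 1 log2 unit of 0.

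Rps24-ps3 had the largest log2 fold change of the tested copies. Rps24, its parent, encodes a small-subunit protein that takes part in processing of ribosomal RNA and is mutated in some patients with Diamond-Blackfan anaemia. The copy's level was 2.61, 2.44 and 2.60 CPM in ICR 1 to 3 and 94.4, 121 and 96.2 CPM in NOD/Ltj 1 to 3. Every NOD/Ltj library thus lay far above every ICR library, with little spread inside either strain. The means were 2.55 ± 0.0984 CPM (SD, n = 3) and 104 ± 14.9 CPM (SD, n = 3), a 40.7-fold difference with a log2 fold change of 5.35 ± 0.21 (SE) and an adjusted p of 0.000264. The call held when any 1 of the 6 libraries was left out.

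The parent was lower in value in NOD/Ltj and did not pass the test. Rps24 stood at 645, 456 and 378 CPM in ICR and at 281, 328 and 286 CPM in NOD/Ltj, groups that did not overlap, with a log2 fold change of -0.72 ± 0.27 and an adjusted p of 0.314. The copy held 0.404, 0.532 and 0.685% of the counts of parent and copy together in ICR and 25.2, 26.9 and 25.2% in NOD/Ltj. The log2 ratio of copy to parent counts, with 4 counts added to each, was 5.99 higher in NOD/Ltj, and the exact permutation p was 0.1, the smallest that 3 against 3 libraries allow. Since copy and parent already separated the strains in opposite directions, this ratio had to separate and adds no further support. The counts of copy and parent summed gave 648, 459 and 380 CPM in ICR and 375, 449 and 382 CPM in NOD/Ltj. Those sums overlapped between strains, with a log2 fold change of -0.30 ± 0.27 and an adjusted p of 0.740. Of the copy's 253 windows of 150 bases, the read length, 22.5% occurred unchanged in Rps24 and 77.5% in no other M21 transcript. How reads were divided between Rps24-ps3 and Rps24 is not given in the sources used here, so both levels are uncertain. Gm11878, Gm8942 and Gm9320, the 3 genes besides Rps24 that share windows with the copy (5, 22 and 22 of them), did not move alike. Gm11878 was called higher, at 0.477, 0.436 and 0.367 CPM in ICR and 2.83, 3.21 and 2.71 CPM in NOD/Ltj, with a log2 fold change of 2.77 ± 0.32 and an adjusted p of 0.0108. Gm9320 was lower in value in every NOD/Ltj library and Gm8942 overlapped, with log2 fold changes of -0.65 ± 0.34 and 0.38 ± 0.60, and neither passed the test, at adjusted p of 0.497 and 0.866.

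**Figure D1:**
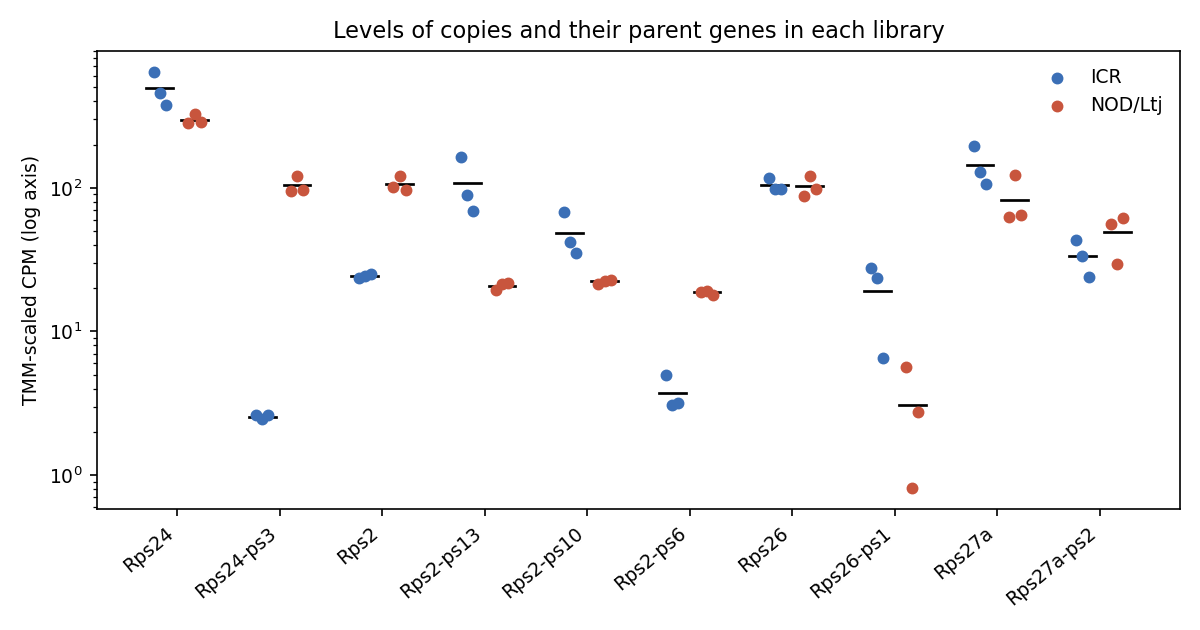
Level of selected copies and their parents in each library (TMM-scaled CPM, log axis), with ICR in blue and NOD/Ltj in red and a black bar at the mean of 3 libraries. Rps24-ps3, Rps2 and Rps2-ps6 sit higher in all 3 NOD/Ltj libraries, Rps2-ps13 and Rps2-ps10 sit lower, and the libraries of Rps26 overlap.

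The Rps2 family differed between the strains in opposite directions at once. Rps2 encodes a small-subunit protein near the path of the mRNA through the ribosome, and 6 of its copies were among the 170. Rps2-ps13 stood at 165, 89.5 and 68.8 CPM in ICR and at 19.4, 21.3 and 21.8 CPM in NOD/Ltj. Every NOD/Ltj library lay below every ICR library, and the spread was wide in ICR and narrow in NOD/Ltj. Its means were 108 ± 50.6 and 20.8 ± 1.25 CPM (SD, n = 3 each), 5.18-fold lower in NOD/Ltj, with a log2 fold change of -2.37 ± 0.34 and an adjusted p of 0.0163. That call was lost without NOD/Ltj 1, 2 or 3, at adjusted p of 0.0556, 0.0887 and 0.109, and without TMM scaling, at 0.0585.

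Rps2-ps6 went the other way, from 4.94, 3.05 and 3.18 CPM in ICR to 19.0, 19.2 and 17.9 CPM in NOD/Ltj. All 3 NOD/Ltj libraries lay close together and above the ICR libraries. The difference was 5.01-fold, with means of 3.73 ± 1.05 and 18.7 ± 0.670 CPM (SD, n = 3 each), a log2 fold change of 2.33 ± 0.24 and an adjusted p of 0.00978, which became 0.0665 without NOD/Ltj 3. Rps2-ps10 was at 68.3, 42.2 and 35.3 CPM in ICR and at 21.4, 22.6 and 22.9 CPM in NOD/Ltj, without overlap, and did not pass the test (log2 fold change -1.12 ± 0.26, adjusted p 0.0865). It passed without ICR 1, at 0.0488. Rps2-ps5, Rps2-ps9 and Rps2-ps11 held at most 22 counts in any library.

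The parent Rps2 was the only parent called. It stood at 23.5, 24.2 and 25.0 CPM in ICR and at 101, 121 and 97.3 CPM in NOD/Ltj, with a log2 fold change of 2.14 ± 0.18 and an adjusted p of 0.00470, which became 0.0509 without NOD/Ltj 3. Of the counts on Rps2 and its copies, the parent held 14.3% ± 5.01 in ICR against 63.0% ± 2.49 in NOD/Ltj (SD, n = 3 each). Rps2-ps13 held 57.0% ± 5.59 and 12.4% ± 1.07, Rps2-ps10 26.4% ± 0.299 and 13.3% ± 1.05, and Rps2-ps6 2.07% ± 0.287 and 11.1% ± 0.718 (SD, n = 3 each). Each of these 4 shares kept to separate ranges in the strains. The family sum, in contrast, was 262, 159 and 133 CPM in ICR and 161, 185 and 160 CPM in NOD/Ltj, which overlapped, with a log2 fold change of -0.13 ± 0.29 and an adjusted p of 0.912. The number of parents called was therefore 1 of 51 when each gene was taken alone and 0 of 51 when each parent was summed with its copies (2.23% of all genes called).

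Relative to Rps2, the copies behaved differently from each other. The log2 ratio to the parent differed by -4.40 (NOD/Ltj minus ICR) for Rps2-ps13 and by -3.19 for Rps2-ps10, with no overlap and an exact permutation p of 0.1 each. Both copies and Rps2 already separated the strains in opposite directions. These ratios therefore had to separate, and they include the change of Rps2 itself. The log2 ratio of Rps2-ps6 to Rps2 differed by 0.21 between strains and overlapped, at an exact permutation p of 0.4. Of the windows of 150 bases, 20.9% of those in Rps2-ps13, 10.6% in Rps2-ps6 and 32.0% in Rps2-ps10 occurred in Rps2. The shares found in no M21 transcript of another gene were 31.9%, 70.5% and 15.8%. Besides Rps2, 19 genes share windows with Rps2-ps6, 20 with Rps2-ps13 and 21 with Rps2-ps10, these copies included. Of those without a -ps symbol, only Gm6311 and Gm6139 are given here, with log2 fold changes of 0.03 ± 0.23 and 0.02 ± 0.22. The rest are not given, among them AC090881.3, which shares 273 windows with Rps2-ps10 against 262 for Gm6139. Gm6311 and Gm6139 therefore do not stand for the rest. How the counting divided reads among these near-identical genes is not given in the sources used here, so each of their levels is uncertain.

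**Figure D2:**
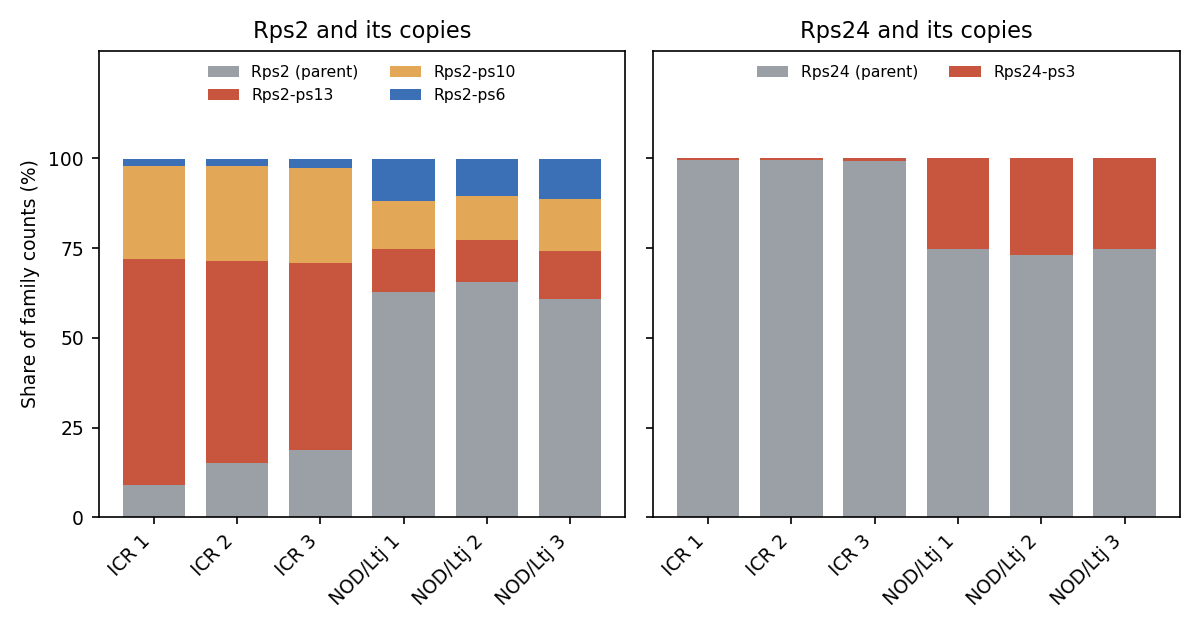
Share of each family's counts (%) on the parent and on each copy in the 6 libraries, for Rps2 (left) and Rps24 (right), with copies under 1% in every library left out. Rps2 itself holds 8.96 to 18.9% in ICR and 60.7 to 65.7% in NOD/Ltj, and Rps24-ps3 goes from under 1% to 25.2 to 26.9%.

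Further copies differed in level without passing the test. Rps26-ps1, a transcribed copy of the gene for a small-subunit protein at the mRNA exit site, stood at 27.9, 23.4 and 6.57 CPM in ICR and at 5.67, 0.810 and 2.74 CPM in NOD/Ltj. ICR 3 lay nearer to NOD/Ltj 1 than to the other ICR libraries, and the groups did not overlap, with ICR 3 and NOD/Ltj 1 as the closest pair. The log2 fold change was -2.66 ± 0.76 with an adjusted p of 0.166, against -0.03 ± 0.20 for Rps26. The copy held 19.3, 19.2 and 6.28% of the family counts in ICR against 6.04, 0.667 and 2.71% in NOD/Ltj. In M21 it lies inside Wwp2, on the opposite strand.

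The remaining copies with the smallest p-values had few counts or small differences. Rps15a-ps6 had 23, 10 and 10 counts in ICR against 42, 33 and 24 in NOD/Ltj (log2 fold change 1.20 ± 0.62, adjusted p 0.490), and lies on the same strand inside Nudcd3. Rps15a-ps4 had 15, 41 and 23 counts and then 9, 12 and 8 (-1.54 ± 0.67, adjusted p 0.389). Both derive from Rps15a, whose log2 fold change was -0.26 ± 0.31. In these copies neither difference passed the test and the directions were opposite. Rpl17-ps4 had between 18 and 24 counts in ICR against 32 to 69 in NOD/Ltj (0.96 ± 0.51, adjusted p 0.505), and Rpl23a-ps9 ranged from 4 to 23 and from 16 to 99 (2.20 ± 0.98, adjusted p 0.404). Rps12-ps4 stood at 13.4, 7.58 and 6.99 CPM in ICR and at 5.07, 6.41 and 5.65 CPM in NOD/Ltj (-0.71 ± 0.29, adjusted p 0.363).

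The most abundant copies were mostly level between the strains. Of the 10 with the highest mean CPM, 8 were not called, with log2 fold changes from -0.51 (Rpl3-ps1) to 0.54 (Rps27a-ps2). Per length, the highest mean level in ICR was that of Rpl34-ps1, at 187 CPM per kilobase of transcript, followed by Rps12-ps3 at 166 and Rpl17-ps3 at 149, with Rps24-ps3 at 6.35. In NOD/Ltj Rps24-ps3 was highest, at 258 CPM per kilobase, followed by Rpl34-ps1 at 160 and Rpl17-ps3 at 137. Rpl34-ps1 stood at 90.0, 53.9 and 54.4 CPM in ICR and at 55.5, 61.0 and 53.0 CPM in NOD/Ltj, while its parent Rpl34, a large-subunit gene, was between 4.45 and 7.71 CPM. The copy thus took more counts than its parent in each library. It differed from Rpl34 at 2 of 354 bases, and 40.5% of its windows occurred in no transcript of another gene. How reads were divided between copy and parent is not given, so both levels are uncertain. Rpl17-ps3 ranged from 71.0 to 93.2 CPM in ICR and from 58.8 to 85.4 CPM in NOD/Ltj, and Rpl7a-ps11, 0% of whose windows were its own, from 70.6 to 91.5 and from 69.1 to 74.0 CPM.

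In 5 families, those of Rpl17, Rpl21, Rpl34, Rpl35a and Rpl7a, the copies held more than 50% of the counts in every library. How reads were divided between these copies and their parents is not given in the sources used here, so the shares are uncertain. All 5 parents encode proteins of the large subunit. Mean shares on the copies were 91.2% in ICR and 90.9% in NOD/Ltj for Rpl34, 87.9% and 89.4% for Rpl21, and 80.0% and 78.6% for Rpl17. In 11 families the copies stayed under 1% in every library. The copy Rps12-ps3, which M21 classes as protein coding, was identical to Rps12 over its 494 bases and stood at 116, 67.8 and 62.5 CPM in ICR and at 59.2, 69.1 and 53.0 CPM in NOD/Ltj (log2 fold change -0.44 ± 0.27, adjusted p 0.578). By these M21 sequences, reads on it cannot be told from reads on its parent.

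Copies and parents both lay mostly near 0, so their closeness to each other shows no relation by itself. The copy's log2 fold change lay within 0.5 of the parent's for 82 of the 117 tested copies and within 0.5 of 0 for 83. It had the same sign as the parent's for 80, where 78 copies and 41 of the 51 parents were below 0. Among the 54 copies with at least 1000 summed counts, 45 lay within 0.5 of the parent and 43 within 0.5 of 0. There were 12 copies at 1 or more from the parent, and 5 of them had at least 1000 counts: Rps24-ps3, Rps2-ps13, Rps2-ps10, Rps26-ps1 and Rps27a-ps2. Across the 117 copies, Pearson's r between copy and parent was -0.02 and Spearman's rho 0.19, as a description, since copies of a family share a parent and its reads. Among 85 tested genes of the cytosolic ribosomal proteins themselves, Rps2 alone was called, 84 were not, and the median log2 fold change was -0.18. Rpl26, a large-subunit gene, had a log2 fold change of 2.04 ± 0.90 and an adjusted p of 0.396 (called when ICR 2 was left out), with 14.9, 157 and 15.0 CPM in ICR and 245, 270 and 252 CPM in NOD/Ltj. Its single copy here, Rpl26-ps4, had 18 counts in all.

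**Figure D3:**
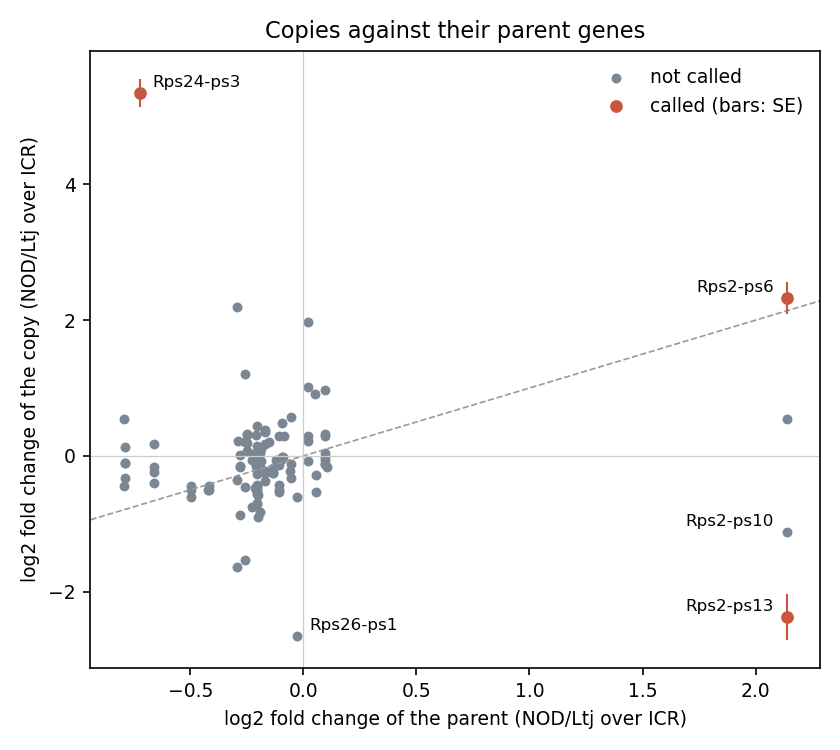
Log2 fold change (NOD/Ltj over ICR) of 116 of the 117 tested copies against that of the parent, with the 3 called copies in red with SE bars and the dashed line where both are equal. Most of the points shown cluster near the origin, Rps24-ps3 sits at 5.35 over a parent at -0.72, and the Rps2 copies spread from -2.37 to 2.33 above 1 parent value of 2.14.

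Some families divided their counts differently between single libraries rather than between strains. Of 49 families with at least 1000 counts in each library, the copies' share ranged by less than 5 percentage points in 28 and by at least 20 points in 5: Rps2, Rps24, Rps27a, Rps13 and Rpl30. All of these families were picked after their values were seen. Rps2 and Rps24 split by strain, as given above, and Rps27a, Rps13 and Rpl30 between single libraries. Rps27a is made as a fusion of ubiquitin and a small-subunit protein. Its copies, nearly all of them counts on Rps27a-ps2, held 18.2, 20.7 and 18.8% of the family counts in ICR against 47.5, 19.6 and 48.9% in NOD/Ltj. NOD/Ltj 2 thus lay with the ICR libraries, and NOD/Ltj 1 and 3 apart from them. The copy stood at 43.6, 33.5 and 24.0 CPM in ICR and at 56.2, 29.5 and 61.4 CPM in NOD/Ltj, and the parent at 195, 129 and 106 CPM and at 62.2, 122 and 64.3 CPM. Neither was called, at adjusted p of 0.570 and 0.399.

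Rps13 and Rpl30 showed the same kind of division. NOD/Ltj 1, also apart in Rps27a, and ICR 2 lay apart in Rps13, and ICR 3 in Rpl30. The copies of Rps13, a small-subunit gene, held 48.2% of the family counts in NOD/Ltj 1, 31.6% in ICR 2 and 11.5 to 19.4% in the other 4 libraries. Rps13-ps2 had 787, 807 and 220 counts in ICR against 910, 354 and 263 in NOD/Ltj, and Rps13-ps1 had 677, 698 and 228 and then 792, 325 and 255. Both copies were highest in NOD/Ltj 1, ICR 1 and ICR 2, and each shares windows with the other. For Rpl30, a large-subunit gene, the copies held 18.3% in ICR 3 and 49.3 to 58.4% in the other 5. Gm12191, which shares windows with several of these copies, is outside this share. In ICR 3 Rpl30 itself had 3006 counts against 743 to 1256 elsewhere, and Rpl30-ps9 had 218 against 397 to 770. ICR 3 is also the library with the highest salivary gland and muscle marker levels, and the part of that difference was not tested. Summed with their copies, Rps27a, Rps13 and Rpl30 were not called, at adjusted p of 0.583, 0.751 and 0.579. With all pseudogenes sharing a window added, they stood at adjusted p of 0.715, 0.751 and 0.918. The log2 fold change of Rpl30 went from -0.44 ± 0.27 to -0.09 ± 0.21 between these sums.

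**Figure D4:**
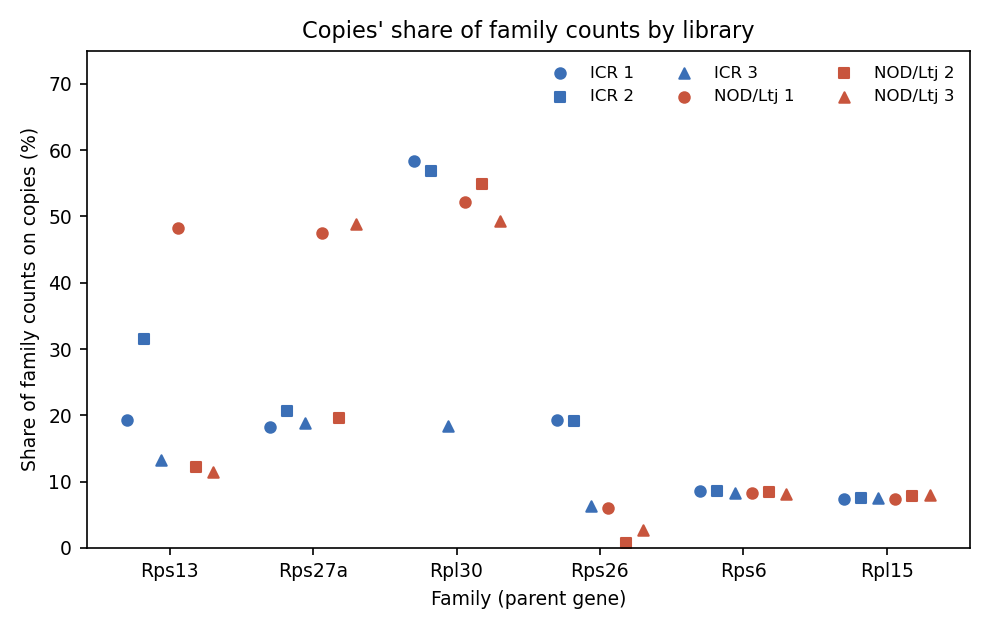
Share of family counts (%) held by the copies in each library, with colour for strain and marker shape for replicate number. Rps27a, Rps13 and Rpl30 have single libraries apart from the rest (for Rpl30, ICR 3 at 18.3%), Rps26 runs from 0.667 to 19.3%, and Rps6 and Rpl15 lie within 7.33 to 8.65% in every library.

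Copies also differed in how far their sequence departs from the parent and from other genes. Of the 170 copies, 168 aligned to the parent, with a median identity of 98.4% and a range from 84.1 to 100%. Identity was at least 99% in 58 copies and under 95% in 24, and Rps7-ps2 and Rpl18-ps1 did not align to the gene their symbol names. A reading frame of the parent's full length, closed by a stop codon, was found in 80 copies, not found in 67 and could not be placed in 21. The 67 are not all broken frames, since in some no stop codon was met before the M21 transcript ended. Rps13-ps2, with 0 mismatches to Rps13 over 99.3% of its coding sequence, is 1 of these. Copies with a full frame found had a median of 547 summed counts and the 67 without one a median of 93, a split that depends also on where the transcript ends. Spearman's rho between identity and summed counts was 0.74 across copies, which share windows with their parents' reads.

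The 29 copies of which no window was their own held 28.8% of all counts on copies, with a median of 2244 counts. The 88 copies with some windows of their own held 70.2%, with a median of 466, and the 53 with only windows of their own held 0.948%, with a median of 38. Copies made up only of such windows thus held under 1% of the counts. Among tested copies, the median distance of the log2 fold change from the parent's was 0.16 in the first class, 0.29 in the second and 0.46 in the third, and its median distance from 0 was 0.20, 0.33 and 0.44. A protein-coding gene spans 47 of the copies, 34 on the opposite strand and 14 on the same strand, with Rps12-ps9 counted on both, and the strand setting of the counting is not given in the sources used here.

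**Figure D5:**
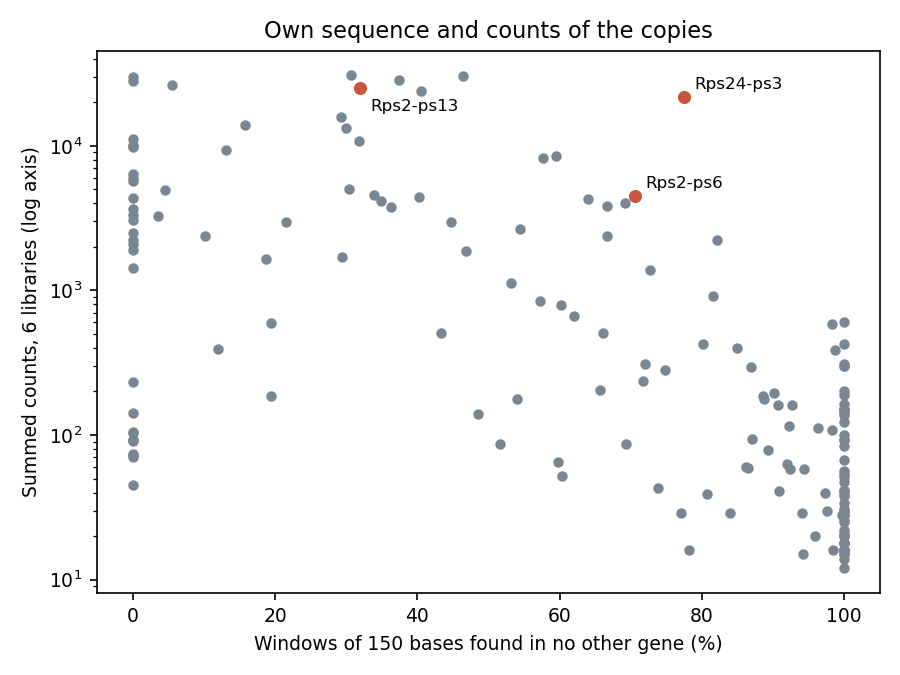
Summed counts over 6 libraries (log axis) of each of the 170 copies against the share of its windows of 150 bases found in no M21 transcript of another gene (%). Called copies are red, at 31.9% (Rps2-ps13), 70.5% (Rps2-ps6) and 77.5% (Rps24-ps3), and the copies at 100% have at most 604 counts.

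The copies of Rpl23a, whose product lies at the exit of the nascent chain, included the only 4 with counts in a single library. Rpl23a-ps12 had 84 counts in ICR 3, Rpl23a-ps7 67 and Rpl23a-ps10 54 in NOD/Ltj 1, and Rpl23a-ps8 20 in ICR 2. All windows of these 4 copies were their own, and their identity to Rpl23a was 84.1 to 85.3%. Rpl23a-ps11 held 387 counts in ICR 2 and 0 in ICR 1, with 15 to 96 in the other 4. Copies Rpl23a-ps7 to Rpl23a-ps12 summed to 8, 430 and 159 counts in ICR against 316, 31 and 67 in NOD/Ltj, ranges that overlapped between the strains. The 8 near-identical copies Rps12-ps11 to Rps12-ps18 held similar counts, 16 to 27 each in ICR 1 and 7 to 15 each in NOD/Ltj 1. Rps12-ps6, which shares 250 windows each with Rps12-ps17 and Rps12-ps18, held 10, 7 and 8 counts in ICR against 5, 9 and 6 in NOD/Ltj.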

How the data were processed

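Polyadenylated RNA was sequenced as paired 150-base reads from strand-specific libraries, per the labels' protocols. The authors deposited 1 table of estimated counts per gene for 6 libraries, in whole numbers and unscaled. Tools listed in the submitters' processing notes are fastp, StringTie and edgeR, without versions. The aligner, build and strand setting were not given in the sources used here, so no coordinates are printed. Symbols, neighbours and transcripts came from GENCODE M21, which named 55141 of the 55401 genes, and the 260 without a symbol held at most 0.0106% of a library.

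Strains were compared with edgeR 4.0.16 (R 4.3.3), by the quasi-likelihood test, two-sided, with TMM scaling (factors 0.809 to 1.26), filterByExpr and Benjamini-Hochberg adjustment over 18537 genes. Plain counts had been planned for, and whole estimated counts needed no rounding. SE is the absolute fitted change over the root of the F statistic. edgeR's common BCV, the relative spread between libraries, was 0.421. Ratios to the parent add 4 counts and were compared by exact two-sided permutation. Copies were aligned to parents with Biopython 1.88 (match 1, mismatch -2, gaps -4 and -1, score at least 100), and windows of 150 bases were matched on both strands after a BLAST 2.17.0+ search. The test was also run on simulated data, and the outcome of that run is not given here. No pair of libraries was identical.

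Named copies were those called, the 10 with the highest mean CPM, the 6 with the smallest p in each direction and their parents, less 1 copy that is not reported here. Copies that hold over 50% of a family, that vary between libraries or that stand in 1 library were described after their values were seen. The members and lists were chosen with earlier results of these data known. Alternatives covered scaling, tool, filter, counts divided by 4, the limit of 12 counts raised to 48, pseudocounts of 1 and 12, a replicate block, each library left out, and family sums.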

Additional observations from a re-analysis of the deposited data

How the results depend on the processing

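The 3 copies called became 6 with DESeq2, where the added copies included Rps2-ps10 and Rps26-ps1 at adjusted p of 0.00534 and 0.000796 and 5.47% of all genes were called. Over all 15 alternatives the count ran from 1 to 6 and Rps24-ps3 was always among them. Leaving out each library gave 1 to 4 copies, 0 to 2 parents and 0 to 2 genes of the ribosomal protein list. Among all genes, the calls in these runs went from 11 higher and 2 lower without NOD/Ltj 3 to 406 and 118 without ICR 1. Without ICR 2 they were 112 and 30. The lowest of these came without NOD/Ltj 3, where 0.0676% of all genes were called, and the highest for parents and list without ICR 2, where Rpl26 joined Rps2. Without TMM scaling the calls were 2 higher and 0 lower, against 2 and 1, as Rps2-ps13 was lost, and the median of all genes moved by 0.12 (log2). Parents called fell from 1 to 0 when summed with their copies, and to 0 when all pseudogenes sharing a window were added, an alternative chosen after seeing the data. The causes were not tested, except that summing pools Rps2 with its copies.

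Samples with the same replicate number did not deviate together, with correlations of -0.12, -0.15 and 0.07, and not every sample correlated best with its own number. With the replicate block 2 copies were called, Rps24-ps3 (adjusted p 0.0122) and Rps2-ps6 (0.0266), and Rps2-ps13 stood at 0.0728, when 0.831% of all genes were called.

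Over 30 named genes, 15 log2 fold changes under single alternatives had the other sign, all of genes not called. Without TMM scaling Rpl34 was at 0.0852 and Rps26 at 0.11. Leaving out each library gave -0.23 to 0.0176 for Rpl17-ps3, -0.0688 to 0.27 for Rpl17-ps10, -0.35 to 0.0457 for Rpl34-ps1, -0.25 to 0.30 for Rpl17, -0.24 to 0.19 for Rpl34, -0.39 to 0.0399 for Rps12, -0.48 to 0.0884 for Rps15a and -0.18 to 0.0668 for Rps26. Ratios for the 3 called copies moved by less than the spread between libraries. Copies with few summed counts are limited by depth.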
